A study of Mus musculus with 141 samples.

Results

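Transcripts of 9 genes of the phagocyte NADPH oxidase and of late neutrophil differentiation were followed in single progenitor cells of mouse bone marrow. They were chosen by name, as Cybb, Cyba, Ncf1, Ncf4 and Rac2 for the oxidase and Fcnb, Hp, Anxa3 and S100a8 for the neutrophil genes, and all 9 were found among the 46078 gene rows of the count table. The cells came from 3 female C57BL/6 mice with no stated genotype change or treatment, whose age is not given in the labels. BMCP, the basophil/mast cell progenitors, were sorted as live cells negative for lineage markers and Sca1, positive for cKit and high for integrin beta7 and CD16/32. GMP, the granulocyte/monocyte progenitors, shared the live, lineage-negative, cKit-positive, Sca1-negative profile and were CD34-positive and CD16/32-high, but lay outside the gate drawn for BMCP. RNA-sequencing reads were counted in 94 BMCP and 47 GMP, of which 89 and 41 passed filters on depth, gene number, mitochondrial share and spike-in share. No label ties a cell to a mouse, so each population counts as 1 sample, cells are not replicates, and no test was possible between the populations.

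The phagocyte oxidase is built from a membrane heterodimer, gp91phox (Cybb) with p22phox (Cyba), and from cytosolic subunits, among them p47phox (Ncf1) and p40phox (Ncf4), which join it together with the small GTPase Rac when the cell is activated. The assembled enzyme passes electrons from NADPH to oxygen, and the superoxide it forms is needed by neutrophils and macrophages to kill ingested microbes. Neutrophils fill their granules in waves, with the azurophil proteins Mpo and Elane made early, around the promyelocyte stage, and the secondary and tertiary granule proteins made later.

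Both membrane subunits and S100a8 have a RefSeq promoter on GRCm38.p6, as do Fcnb and Ncf1, so that 5 of the 9 genes matched. Those of Cyba, Cybb and S100a8 are shown because the first pair encodes the chains of 1 heterodimer yet differed in how widely they were read, and because S100a8 was read in a handful of cells. Each runs 5′ to 3′ along the gene, from 250 bases before to 50 bases after the annotated start. Cyba lies on the minus strand at chr8:122432891-122433190, Cybb on the minus strand at chrX:9469275-9469574 and S100a8 on the plus strand at chr3:90668821-90669120. The RefSeq start of Cybb lies inside the longer span that GENCODE gives the gene. Capitals mark matches to the motifs described next.
Cyba: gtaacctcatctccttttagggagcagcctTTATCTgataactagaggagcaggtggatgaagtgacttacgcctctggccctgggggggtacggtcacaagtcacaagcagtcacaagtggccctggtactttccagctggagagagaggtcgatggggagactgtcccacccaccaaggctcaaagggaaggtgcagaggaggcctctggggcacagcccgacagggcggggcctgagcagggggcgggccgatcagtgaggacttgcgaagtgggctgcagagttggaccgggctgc
Cybb: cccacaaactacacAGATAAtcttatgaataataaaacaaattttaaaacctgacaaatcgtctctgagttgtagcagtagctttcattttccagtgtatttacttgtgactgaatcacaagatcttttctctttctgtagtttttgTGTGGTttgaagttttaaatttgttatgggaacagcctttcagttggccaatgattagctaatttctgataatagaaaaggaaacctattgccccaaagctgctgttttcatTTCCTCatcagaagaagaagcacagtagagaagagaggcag
S100a8: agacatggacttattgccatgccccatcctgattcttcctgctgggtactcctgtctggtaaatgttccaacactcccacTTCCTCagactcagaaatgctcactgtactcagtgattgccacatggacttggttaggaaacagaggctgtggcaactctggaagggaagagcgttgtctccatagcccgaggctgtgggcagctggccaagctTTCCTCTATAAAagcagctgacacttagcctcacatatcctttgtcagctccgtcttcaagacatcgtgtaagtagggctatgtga
Motifs were searched as exact letters on both strands. The PU.1 core GAGGAA was found in 28.1% of 32544 RefSeq promoters of the same length, the C/EBP motif TTGCNNAA in 10.8%, the GATA motif AGATAA in 11.2%, the RUNX motif TGTGGT in 16.7% and the TATA box TATAAA in 13.6%. The Cyba promoter held 1 GATA match, which begins 220 bases before the start. The Cybb promoter held a GATA match at 236 bases and a RUNX match at 103 bases before the start, and a PU.1 core 10 bases after it. In S100a8 there were PU.1 cores at 170 and 36 bases before the start, the second directly followed by a TATA box at 30 bases. These are matches of letters, not sites shown to be bound.

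Kept BMCP held a median of 893037 nuclear-encoded counts per cell (96129 to 2416630), and kept GMP a median of 1309890 (130191 to 3688848). Genes with a count numbered 5440 per BMCP and 7001 per GMP at the median. The median share of spike-in reads was 11.3% for BMCP and 5.92% for GMP. Levels are given as CPM, which are reads scaled to a total of 1e+06 nuclear-encoded counts and summed over a population, and the log2 ratio compares BMCP with GMP after adding 1 CPM to each. Where a pair of levels is given, that of BMCP comes first. A floor of 3 counts came to 0.0356 CPM for BMCP and 0.0540 CPM for GMP. Shares of cells refer to 86 BMCP and 40 GMP thinned to 200000 reads each, with a gene detected at 2 or more reads. Elane, an azurophil granule gene of GMP, was detected in 2 of 86 BMCP and Mpo in 22, while Gzmb, a mast cell protease gene read in every BMCP, reached 2 of 40 GMP, and these shares stand for reads in a population that should lack the gene. Intervals are at 95%. Those of levels and ratios cover the counting of reads only, not of molecules. Those of shares treat cells as independent draws, although cells are not replicates. For a share of 0 the limit given is instead 3 cells of the total.

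GMP were not uniform. When cells were clustered without the 9 genes and without any listed gene, 38 GMP formed 1 cluster with no BMCP, GMP replicates 8 and 20 fell with 23 BMCP, and replicate 24 fell with 50 BMCP. With Leiden clustering replicate 8 joined the other GMP. Gata2, a transcription factor of the basophil and mast cell lineages, stood at 1582, 1068, 1789 and 2144 CPM in GMP replicates 8, 20, 24 and 30, where Elane stood at 177, 25.6, 19.7 and 6.72 CPM against 7307 CPM over all GMP. All 8 basophil and mast cell markers listed had reads in GMP, and their summed level ranged from 11.1 to 10350 CPM in single GMP and from 1083 to 80503 CPM in single BMCP. Among them, Cma1 and Gzmb reached at most 2.48 and 3.70 CPM in a GMP. Hdc was higher in GMP, at 518 CPM against 238 CPM in BMCP. Of 9 markers of mature neutrophils, 5 had no GMP read, and their sum reached at most 393 CPM in a GMP and 481 CPM in a BMCP. The part of such cells in the levels that follow was not tested beyond leaving out the GMP that fell with BMCP, and replicates 24 and 30 singly. Replicate 30 clustered with the other GMP, so leaving out the GMP that fell with BMCP kept it.

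The set split into genes that were lower in BMCP and genes that were not. Among the 8 that passed the minimum of 1 CPM in 1 population or both, 6 were lower in BMCP by 2-fold or more, as were 21.03% of 14554 genes, and 0 were higher by as much, against 25.78% of genes. Those lower were Cybb, Ncf1, Ncf4, Hp, Anxa3 and S100a8, whereas Cyba and Rac2 lay between and Fcnb had no read. Cybb, Hp, Anxa3 and S100a8 reached 1 CPM in GMP alone, so they could only come out lower in BMCP. The same holds for every gene of the lists below that reached 1 CPM in GMP alone. The set was also chosen with earlier results of these data known, so the counts are descriptions. The median log2 ratio of the 8 was -1.90, or -1.19 over all 9, and that of all 14554 genes was 0.038. The differences fell into separate size ranges. Hp, Anxa3 and Cybb had 2, 3 and 1 reads in all BMCP together, while Ncf1 and Ncf4 had 5991 and 2793 reads and were lower by little more than 2-fold. Without GMP replicates 8, 20 and 24, left out as a step chosen after seeing the data, the 2 counts were again 6 and 0. Of all genes, 21.2% were lower and 26.8% higher at that step. For Ncf1 and Ncf4 that fold was not held in each block of BMCP columns, whose values follow the account of Ncf4.

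**Figure D1:**
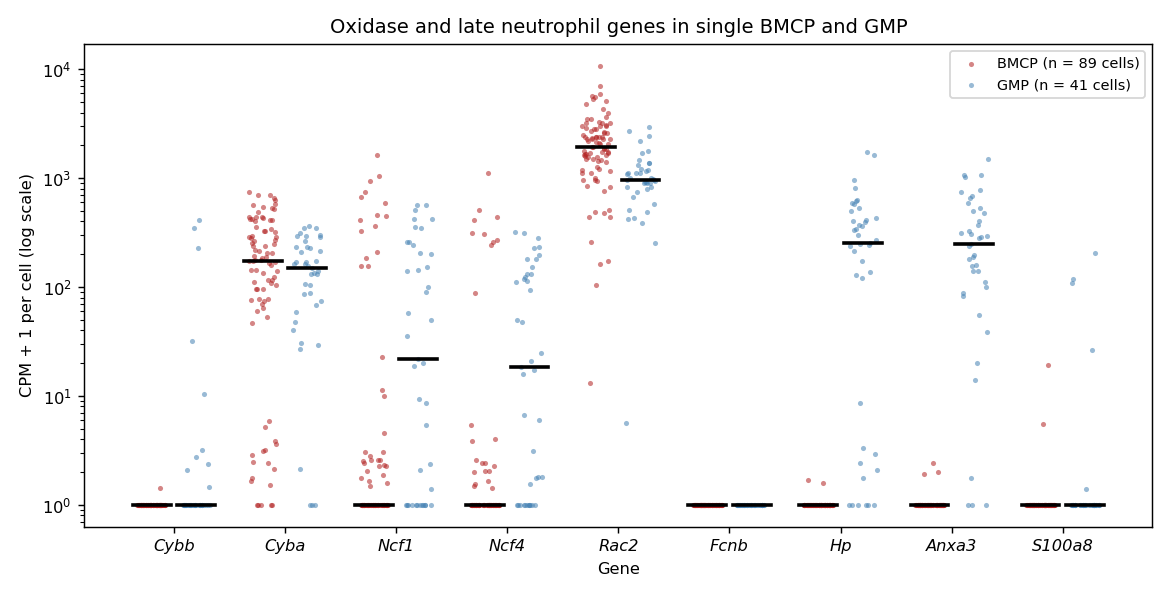
Level of the 9 genes (x axis) as CPM plus 1 per cell (log y axis), with 1 red point for each BMCP (n = 89 cells) and 1 blue point for each GMP (n = 41 cells), with the median as a black bar. Hp and Anxa3 have GMP medians of 253 and 245 CPM and BMCP values under 2 CPM, Rac2 is read in every cell of both, and Fcnb has no read.

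Cybb, on chromosome X of GRCm38 (9435252 to 9487771, minus strand), encodes gp91phox, the flavocytochrome chain that carries the electrons across the membrane. Over all BMCP it had 1 read, in replicate 56, which is 0.0119 CPM, and over all GMP 31.6 CPM (30.1 to 33.1). The ratio of GMP to BMCP was 2663 with a counting interval of 477 to 105237, and the log2 ratio was -5.01.

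The GMP level of Cybb came from few cells. Of 41 GMP, 10 had a read, and GMP replicates 47, 33 and 28 held 411, 346 and 229 CPM. Replicate 8 followed at 30.7 CPM on 4 reads and replicate 17 at 9.41 CPM, and the median GMP was at 0. Replicate 47 alone gave 53.3% of the reads, and without it the GMP level was 15.4 CPM and the log2 ratio -4.02. After thinning, 4 of 40 GMP had Cybb (10%, 2.79 to 23.7) and 0 of 86 BMCP, which allows a share of up to 3.49%.

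Cyba encodes p22phox, the partner that stabilises gp91phox and docks the cytosolic subunits, and it also serves other NADPH oxidases. The gene is on chromosome 8 (122424776 to 122432930, minus strand). Single BMCP ranged from 0 to 739 CPM with a median of 174 CPM, and single GMP from 0 to 360.02 CPM with a median of 148 CPM. The populations overlapped through most of their range, but 20 of 89 BMCP lay above the highest GMP. Summed levels were 215 and 150 CPM, 1.43-fold higher in BMCP (1.39 to 1.47) with a log2 ratio of 0.51, which turned to -0.35 when levels were scaled to spike-in reads.

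Thinned reads of Cyba were found in 68 of 86 BMCP (79.1%, 68.95 to 87.1) and 36 of 40 GMP (90%, 76.3 to 97.2), an order opposite to that of the levels, so no order is drawn from the shares. Per kilobase of exon, Cyba stood 26.6-fold above Cybb in GMP, at 145 and 5.44 CPM per kb. In BMCP it stood at 207 CPM per kb, where Cybb had a single read. Of the 4 thinned GMP with Cybb, 3 also had Cyba, as did 36 of all 40. Of 40 GMP, 3 had both, 33 had Cyba without Cybb and 1 had Cybb without Cyba.

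Rac2, the haematopoietic Rac GTPase that the oxidase of neutrophils uses, was the most abundant of the 9 per kilobase in both populations. On chromosome 15 it spans 78559167 to 78572783 on the minus strand. Every cell had reads. BMCP ranged from 12.2 to 10711 CPM with a median of 1941 CPM, and GMP from 4.62 to 2924 CPM with a median of 957 CPM. The ranges overlapped, with 21 of 89 BMCP above the highest GMP. Summed levels were 2179 and 1127 CPM, 1.93-fold higher in BMCP (1.91 to 1.95) with a log2 ratio of 0.95, or 0.08 when scaled to spike-in reads.

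The highest GMP for Rac2 were replicates 12, 30 and 24 at 2924, 2721 and 2447 CPM. Leaving out replicate 30 brought the log2 ratio to 1.05, past 2-fold. The mean of the cells' CPM gave 1.06. Rac1, the widely expressed relative, was at 212 and 280 CPM, so the ratio of Rac2 to Rac1 per kilobase was 14.9 in BMCP and 5.83 in GMP.

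Ncf1, on chromosome 5 (134220053 to 134229625, minus strand), encodes p47phox, the organiser subunit that is phosphorylated on activation and carries the cytosolic complex to the membrane. Of 89 BMCP, 53 had no Ncf1 read, yet the highest, replicate 14, reached 1615 CPM. GMP ranged from 0 to 571 CPM with a median of 20.7 CPM, and 12 of 41 had no read. Most BMCP thus lay below the GMP median, but 6 BMCP lay above the highest GMP.

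After thinning, 16 of 86 BMCP had Ncf1 (18.6%, 11.02 to 28.4), as did 23 of 40 GMP (57.5%, 40.9 to 72.96). Among the cells with it, the median was 387 CPM in the 16 BMCP and 202 CPM in the 23 GMP. The summed BMCP level was 71.1 CPM (69.3 to 72.9) against 149 CPM (145 to 152) for GMP, with a log2 ratio of -1.05. The 5 highest BMCP held 62.1% of the BMCP reads. Gtf2ird2, which lies on the opposite strand and shares 408 exon bases (11.1%) with Ncf1, was at 84.9 and 44.9 CPM, and the protocol does not part their strands. The share of BMCP with Ncf1 was below that with Mpo at 2 reads, whereas at 10 reads 14 BMCP had Ncf1 and 3 had Mpo.

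Ncf4 encodes p40phox, which binds phosphatidylinositol 3-phosphate on the phagosome. Its position on chromosome 15 is 78244801 to 78262580, on the plus strand. BMCP ranged from 0 to 1119 CPM with a median of 0, and GMP from 0 to 316 CPM with a median of 17.4 CPM. BMCP replicate 38 gave 30.1% of the BMCP reads and GMP replicate 46 gave 27.3% of the GMP reads. Like Ncf1, Ncf4 was high in few BMCP, 4 of which exceeded the highest GMP, and after thinning 9 of 86 BMCP (10.5%, 4.90 to 18.9) and 22 of 40 GMP (55%, 38.5 to 70.7) had it. Its summed levels were 33.2 CPM (31.9 to 34.4) and 77.1 CPM (74.8 to 79.4), a log2 ratio of -1.19. At 10 reads, 9 BMCP had Ncf4.

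The columns of the table arrange BMCP numbers 1 to 47, BMCP numbers 48 to 94 and GMP as separate blocks, and the difference in Ncf1 and Ncf4 was uneven across the BMCP blocks. Ncf1 stood at 142 CPM in numbers 1 to 47 and 28.1 CPM in numbers 48 to 94, with log2 ratios of -0.06 and -2.36 against the same GMP. For Ncf4 the levels were 59.04 and 17.5 CPM and the log2 ratios -0.38 and -2.08. The shares of cells differed less between the blocks. Ncf1 was detected in 11 of 43 (13.5 to 41.2%) and 5 of 43 (3.89 to 25.1%), and Ncf4 in 6 of 43 (5.30 to 27.9%) and 3 of 43 (1.46 to 19.1%), each share below that of GMP. Shares over all BMCP were also lower for the listed genes Cat (60.5% and 77.5%) and Vav1 (58.1% and 87.5%). Their summed levels were similar, at 307 and 270 CPM for Cat and 220 and 214 CPM for Vav1. The lower shares of Ncf1 and Ncf4 are thus not read as particular to them, although not every listed gene had a lower share. When the CPM of single cells were averaged instead of summing reads, the log2 ratios over all BMCP were -0.42 for Ncf1 and -0.74 for Ncf4. Since every GMP lies in the same block, a block's own effect and that of the population cannot be told apart.

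**Figure D2:**
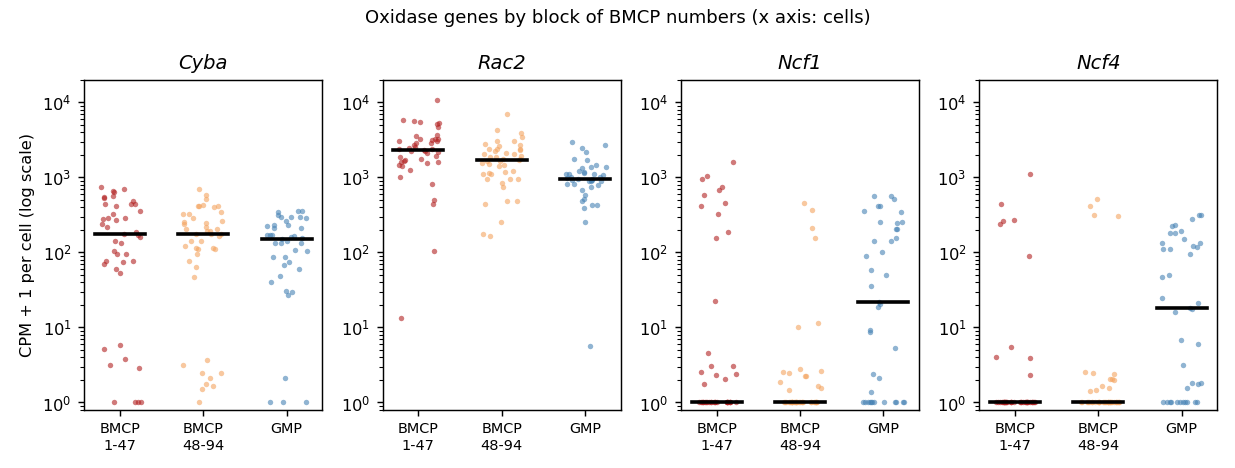
CPM plus 1 per cell (log y axis) for Cyba, Rac2, Ncf1 and Ncf4 in BMCP numbers 1 to 47 (n = 44 cells), BMCP numbers 48 to 94 (n = 45 cells) and GMP (n = 41 cells) along the x axis, with medians as black bars. Ncf1 and Ncf4 have a median of 0 in each BMCP block with a few cells above 100 CPM, while Rac2 has medians of 2339, 1698 and 957 CPM.

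Rac2 stood at 2756 CPM in numbers 1 to 47 and 1829 CPM in numbers 48 to 94, and Cyba at 239.7 and 199.9 CPM. Both were above their GMP level in each block. Hp, Anxa3 and Cybb had at most 2 reads in either block.

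The subunits Cybb, Cyba, Ncf1 and Ncf4 were then counted cell by cell. All 4 were detected together in 0 of 86 BMCP, which allows a share of up to 3.49%, and in 1 of 40 GMP (2.5%, 0.0633 to 13.2), replicate 28. The result was the same at 1 and at 10 thinned reads. Leaving Cybb aside, the other 3 were detected together in 4 of 86 BMCP (4.65%, 1.28 to 11.5), replicates 12, 29, 62 and 88, and in 11 of 40 GMP (27.5%, 14.6 to 43.9). BMCP replicate 12 also held the highest BMCP levels of Mpo (389 CPM) and Ctsg (2352 CPM), though not of Elane, Prtn3 or Ms4a3. Without that cell the log2 ratios were -1.23 for Ncf1 and -1.32 for Ncf4.

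Counted by number, the most common state was 1 subunit in BMCP and 2 subunits in GMP. Of 86 BMCP, 14 had none of the 4, 55 had 1, 13 had 2 and 4 had 3. Of 40 GMP, 1 had none, 8 had 1, 17 had 2, 13 had 3 and 1 had 4. Cyba was the subunit detected in the most BMCP. A transcript missed in a cell at this depth may still have been present. Some other genes with similar levels, such as Vav1, were also detected in a smaller share of BMCP. Whether the lower subunit counts are particular to these 4 genes was not tested.

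**Figure D3:**
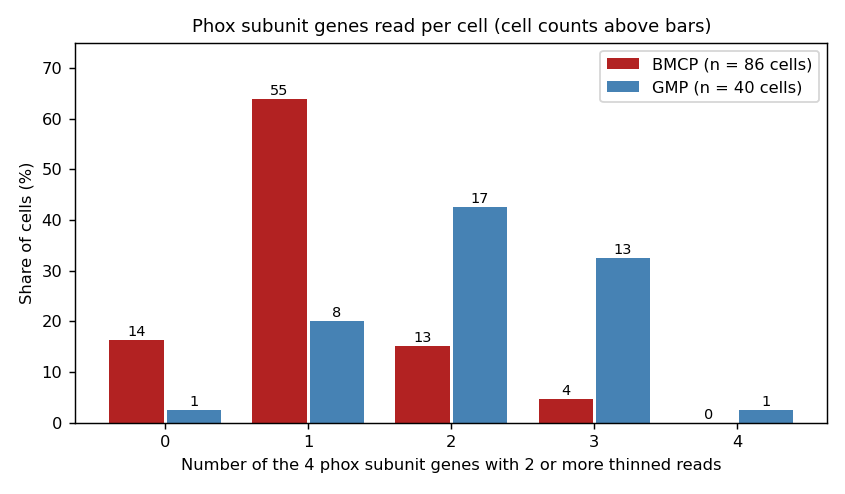
Share of thinned cells (y axis, %) by how many of the 4 phox subunit genes Cybb, Cyba, Ncf1 and Ncf4 had 2 or more reads (x axis), BMCP in red (n = 86 cells) and GMP in blue (n = 40 cells), with the number of cells above each bar. BMCP peak at 1 subunit with 55 cells and GMP at 2 subunits with 17 cells.

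Across 41 GMP, Spearman's rho was -0.08 between Ncf1 and Ncf4, -0.09 between Cybb and Cyba, and -0.40 between Ncf4 and Rac2. It was 0.29 between Ncf1 and Hp. These are descriptions over cells that share a library chemistry and differ in depth. Of 40 GMP, 12 had both Ncf1 and Ncf4, 11 had Ncf1 alone, 10 had Ncf4 alone and 7 had neither.

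Of 11 other genes of oxidase assembly, all 11 reached 1 CPM and 8 lay within 2-fold. By 2-fold or more, 2 were higher and 1 was lower in BMCP, against 25.78% and 21.03% of all genes, and the median log2 ratio was 0.43, which turned to -0.44 with spike-in scaling. The higher pair were Prex1, a Rac exchange factor of neutrophils, at 215 and 37.4 CPM, and Prkcb, a kinase that phosphorylates p47phox, at 101 and 20.2 CPM. The lower was Hvcn1, the voltage-gated proton channel that balances the charge moved by the oxidase, at 8.45 and 23.7 CPM. Its level was 21.7 CPM in BMCP numbers 1 to 47, within 2-fold of GMP, and 0.419 CPM in numbers 48 to 94. Cybc1, a chaperone of the membrane heterodimer, stood at 156 and 114 CPM with a log2 ratio of 0.45. None of 7 genes for other NADPH oxidases and their partners reached 1 CPM, with Noxo1 at 21 GMP reads the most read.

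Hp, which encodes haptoglobin, a haemoglobin-binding plasma protein that human neutrophils also store in their granules, was read in most GMP and nearly no BMCP. The gene lies at 109575128 to 109579172 on chromosome 8, on the minus strand. The highest BMCP was at 0.703 CPM, and 35 of 41 GMP lay above it. GMP ranged from 0 to 1724 CPM with a median of 253 CPM and an upper quartile of 428 CPM, and replicates 43 and 7 were highest at 1724 and 1619 CPM. Over all BMCP there were 2 reads, 0.0237 CPM, against 327 CPM (322 to 332) in GMP, a ratio of 13767 with a counting interval of 3810 to 113684 and a log2 ratio of -8.32.

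After thinning, Hp was detected in 29 of 40 GMP (72.5%, 56.1 to 85.4) and in 0 of 86 BMCP, and the same number of GMP had it at 10 reads. It was thus either plain or near absent in a GMP. Csf1r, the receptor of macrophage colony-stimulating factor, was detected in 16 GMP, and all 16 had Hp. So did 13 of the 24 GMP without Csf1r. Hp was also present in 18 of the 21 GMP with Cebpe, a factor of granulocyte maturation, and in 11 of the 19 without it. With both genes taken at 10 reads the contrast was smaller, with Hp in 11 of 14 GMP with Cebpe and 18 of 26 without. Of 21 GMP with Gata2, 12 had Hp, against 17 of the 19 without. At 10 reads for both genes, Hp was in 10 of 17 GMP with Gata2 and 19 of 23 without.

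The 11 thinned GMP that lacked Hp were replicates 3, 4, 9, 10, 12, 15, 20, 24, 30, 34 and 44. They were not one kind of cell by the other genes. Replicate 10 held 14504 CPM of Elane and no Gata2 read, while replicates 20, 24 and 30 held at least 1068 CPM of Gata2 and at most 25.6 CPM of Elane. In the 38 GMP that clustered apart from BMCP, Hp was at 339 CPM.

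Anxa3, a calcium-dependent membrane-binding annexin abundant in human neutrophils, was detected in more GMP than any other of the 9 genes but Rac2. The margin was small, with 37 GMP for Anxa3 and 36 for Cyba. With cells thinned to 100000 reads the order turned, at 87.8% of GMP for Anxa3 and 90.2% for Cyba. Anxa3 spans 96793339 to 96845966 on the plus strand of chromosome 5. The highest BMCP was at 1.41 CPM, with 3 reads in all BMCP. GMP ranged from 0 to 1487 CPM with a median of 245 CPM, 37 of 41 lay above the highest BMCP, and replicate 27 was highest. The 3 GMP without a read were replicates 8, 24 and 30, while replicate 20 held 472 CPM.

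The summed levels of Anxa3 were 0.0356 and 343 CPM (338 to 348), a ratio of 9638 with a counting interval of 3298 to 46742 and a log2 ratio of -8.38. Thinned reads were found in 37 of 40 GMP (92.5%, 79.6 to 98.4) and 0 of 86 BMCP. Of the 11 GMP without Hp, 9 had Anxa3 reads. Per kilobase, Hp stood at 204 and Anxa3 at 94.2 CPM per kb in GMP. These lay on either side of Cyba at 145 CPM per kb and above Ncf1 at 40.6, Ncf4 at 38.2, S100a8 at 10.4 and Cybb at 5.44 CPM per kb.

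S100a8, the calcium-binding protein that pairs with S100a9 as calprotectin in neutrophils, was read in few cells. Its gene is on chromosome 3 (90668978 to 90670035, plus strand). In GMP replicates 43, 27, 10 and 19 it stood at 205, 118, 108 and 25.1 CPM, replicate 45 had 1 read, and 36 GMP had none. In BMCP, 29 reads fell into replicates 69 and 58, and 0.0723 CPM remained without replicate 69. Those 4 GMP stood above every BMCP, whose highest value was 18.1 CPM, but most cells of both populations were at 0.

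The summed levels of S100a8 were 0.344 and 7.19 CPM, a GMP to BMCP ratio of 20.9 (14.3 to 31.6) and a log2 ratio of -2.61, and 1 of 86 BMCP and 4 of 40 GMP had it after thinning. All 4 GMP also had Cyba and Ncf1, none had Cybb, and 1 had Ncf4. S100a9, its partner, had no read in any GMP and 36 reads in BMCP, 94.4% of them in replicate 7.

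Fcnb, on chromosome 2 (28076378 to 28084885, minus strand), encodes ficolin B, a pattern-recognition lectin of mouse myeloid cells. No kept cell had a read, which allows up to 0.0356 CPM over BMCP and up to 0.0540 CPM over GMP, and the 11 cells left out had none either. Its relative Fcna was read almost wholly in GMP replicate 29, which held 99.9% of its GMP reads.

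The name of late neutrophil genes holds only in part for these cells. Of 20 listed genes of secondary and tertiary granules and of late neutrophils, 9 reached 1 CPM, of which 6 were lower and 2 higher in BMCP by 2-fold or more, against 21.03% and 25.78% of all genes. The median log2 ratio was -2.88 over those 9 and 0 over all 20. Chil3, Mmp9, Cd177 and Lrg1 had no read in either population. Ltf and Camp, which define secondary granules, had no read in GMP, and Ly6g had 4 reads there. Hp and Anxa3 were hence read in most GMP in which those defining genes were at or near 0.

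Lyz2, lysozyme 2, was the most widely read of that list in GMP, at 392 CPM. Its BMCP level was 6.66 CPM, and 2.17 CPM once BMCP replicate 1 was left out. Pglyrp1, a peptidoglycan-binding granule protein, was at 2.30 and 73.97 CPM. Cxcr2, the neutrophil chemokine receptor, had no BMCP read and stood at 31.8 CPM in GMP, which was 14.1 CPM with replicate 45 left out, and 5 of 40 GMP had it. Padi4, which citrullinates histones, also had no BMCP read and stood at 6.72 CPM in GMP, which was 4.46 CPM with replicate 1 left out. Lcn2, an iron-siderophore-binding protein, had 1 BMCP read and a GMP level of 6.43 CPM, which was 3.09 CPM with replicate 18 left out.

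Of the list's remaining changes, Ngp rested on single cells, with 99.6% of BMCP reads in replicate 42 and 99.0% of GMP reads in replicate 30. Higher in BMCP were Ltb4r1, the leukotriene B4 receptor, at 487 and 72.8 CPM, and Mmp8, a collagenase. Mmp8 had no GMP read, and its BMCP level of 13.4 CPM came from few cells, being 6.92 CPM with BMCP replicate 3 left out and found in 3 of 86 thinned BMCP. The earlier list, of the azurophil granule genes Mpo, Elane, Prtn3 and Ctsg with Ms4a3, a membrane protein gene of granulocyte progenitors, was lower in BMCP by 2-fold or more in 5 of 5 cases, against 21.03% of all genes, and its median log2 ratio was -8.77, that of Ms4a3.

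**Figure D4:**
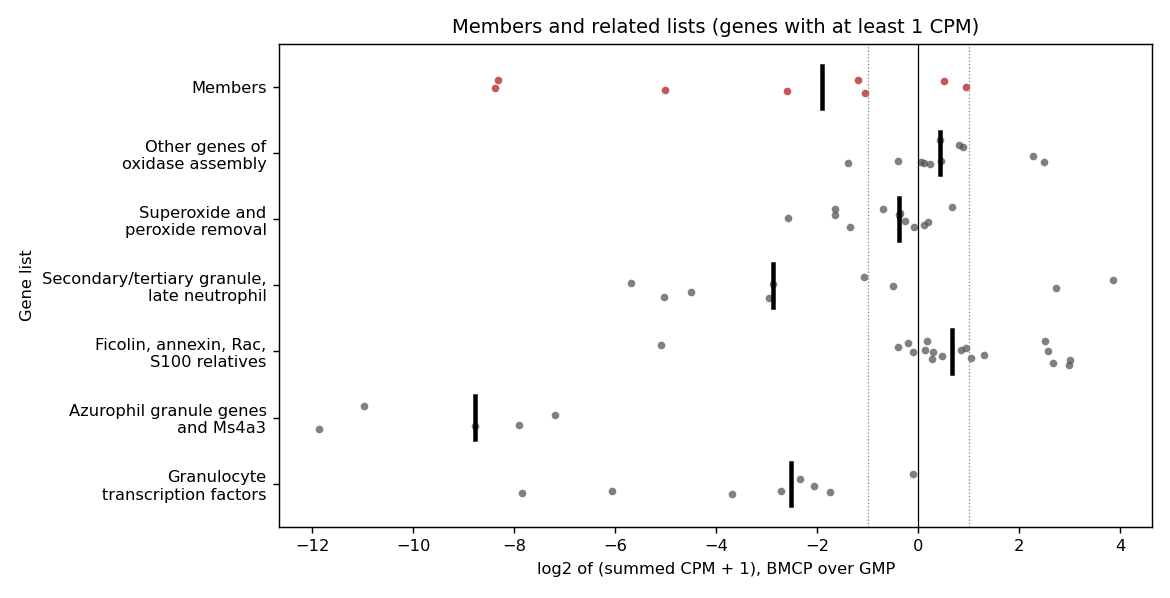
Log2 ratio of BMCP to GMP from summed levels with 1 CPM added (x axis), by gene list (y axis), for genes past the minimum of 1 CPM, with the median as a black bar and dotted lines at 2-fold. The 8 tested genes of the set, in red, spread from -8.38 to 0.95, whereas the 11 other oxidase genes have a median of 0.43 (-0.44 with spike-in scaling) and the azurophil genes with Ms4a3 a median of -8.77.

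Transcription factors of the granulocyte path were lower as well. By 2-fold or more, 7 of 8 tested were lower and 0 were higher, against 21.03% and 25.78% of all genes, and their median log2 ratio was -2.53. The 7 included Irf8, also listed as a monocyte and macrophage marker, at 0.202 and 274 CPM with a log2 ratio of -7.84. Spi1, which encodes PU.1, a regulator of the oxidase genes, stood at 121 and 409.9 CPM. Cebpe stood at 1 read and 67.1 CPM, and Cebpa, a factor of granulocyte commitment, at 24.3 and 128 CPM. Irf1 was the 1 that did not pass 2-fold, at 147 and 158 CPM.

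Genes that varied most like each member from GMP to GMP were sought among 7002 genes across 41 cells, with Spearman's rho of at least 0.5. Hp was nearest to Ly6c2 (0.67), a surface antigen of monocytes and granulocytes, Zmiz2 (0.61) and the azurophil protease gene Prtn3 (0.58). Ncf1 was nearest to Stat4 (0.58), Sbf1 (0.58) and Sh2b2 (0.54), and Ncf4 to Desi2 (0.59), Gbp3 (0.53) and Pgap2 (0.53). Anxa3 was nearest to Iffo1 (0.58), Rac2 to Trnau1ap (0.54) and Cyba to Wdr75 (0.57). The cells share their library chemistry and differ in depth. These pairs were picked as the highest of 7002 correlations, and what unrelated genes would reach by such picking was not tested. Of 16 such pairs, 5 were among the nearest by Pearson correlation and 10 without the 3 GMP that fell with BMCP.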

How the data were processed

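The authors deposited a table of raw read counts, with genes in rows and cells in columns. Per the labels' protocols, polyA RNA of single cells sorted into 96-well plates was primed with oligo-dT, and the cDNA, with ERCC spike-ins, went through 23 cycles of PCR before single-end sequencing of 50 bases. Per the submitters' processing notes, GSNAP 2015-09-29, HTSeq 0.5.3p3 and mm10 were used, with an annotation not given in the sources used here. Since the protocol names no molecular identifiers, a read does not stand for a molecule.

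Symbols, coordinates and merged exon lengths came from GENCODE vM21 on GRCm38, which named 45229 of 46078 gene rows. Cells were kept with at least 50000 nuclear-encoded counts and 1000 genes, at most 10% mitochondrial and at most 50% spike-in reads, which left out 11. HTSeq rows that name no gene (no feature, ambiguous, unaligned) were left out of totals and held 17.9%, 3.84% and 31.0% of reads in BMCP and 11.5%, 6.23% and 28.4% in GMP. No pair of cells had identical counts, and doublets were not sought, since the wells were filled by single-cell sorting.

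Counts were summed per population and scaled to CPM, and genes that reached 1 CPM in BMCP, GMP or both were compared with a pseudocount of 1 CPM. With 1 sample a group, called means past 2-fold, and no p-value was computed. Intervals are exact Poisson for levels, exact conditional binomial for ratios and Clopper-Pearson for shares. Clustering used Ward's method on 10 principal components of 1000 variable genes, into 4 clusters. Every one of the 9 genes and every gene of the related lists could be named, with the 3 most correlated genes per member at a rho of at least 0.5 among genes with at least 20 CPM, detected in 25% of GMP. The members and lists were chosen with earlier results of these data known. A single item planned for the oxidase list and for the count of subunits per cell is not reported here. Alternatives changed the scaling, pseudocount, filters, depth, blocks, single cells, detection limit, likeness measure and clustering. Software was scipy 1.17.1, pandas 2.3.3, numpy 2.4.6, leidenalg 0.10.2, igraph 0.11.9 and matplotlib 3.10.9 under Python 3.11.15.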

Additional observations from a re-analysis of the deposited data

How the results depend on the processing

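No paired analysis was possible because the numbers of BMCP and GMP only name single cells and no test was made. Over 33 results and 291 alternatives, 258 values stayed within their limits, 33 moved and 0 reversed a called direction. A count of 4 in place of 6 still fell within its limit, and Fcnb, with no read, could not move. The 258 thus overstates how stable the values were. The number of members at least 2-fold higher in BMCP was 1 instead of 0, always Rac2, with the mean of the cells' CPM, with cells thinned to 200000 reads and for BMCP numbers 1 to 47, and it ranged from 0 to 1 when single cells were left out, being 1 without GMP replicate 30. The number at least 2-fold lower was 6, but 4 with the mean of the cells' CPM, with cells thinned, with a pseudocount of 10 CPM and for BMCP numbers 1 to 47, and 5 with no cell left out. Of all genes, 21.3%, 21.6%, 9.94%, 26.7% and 21.1% were lower in those settings, in that order. With spike-in scaling 6 members were lower, against 43.2% of all genes. The median log2 ratio over the members was -2.57 with spike-in scaling, which moved the median of all genes to -0.79, -2.63 with a pseudocount of 0.1 CPM, -0.99 with a pseudocount of 10 CPM and -1.19 with no minimum CPM. Under spike-in scaling the log2 ratios were -1.91 for Ncf1 and -2.04 for Ncf4. The genes most like a member were 16, of which 5 recurred with Pearson correlation and 10 without the GMP that fell with BMCP. The cause of these shifts was not tested. At 200000 thinned reads, the 0 of 86 BMCP with Cybb, Hp or Anxa3 limits cells with reads, not cells with the transcript.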

Other observations

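Genes that remove superoxide and peroxide were lower in BMCP for 4 of 12 listed and higher for 0, against 21.03% and 25.78% of all genes, with a median log2 ratio of -0.38. With spike-in scaling 8 were lower, against 43.2% of all genes, and the median was -1.24. Gsr, glutathione reductase, was at 70.2 and 426 CPM, in that order of populations, and 26 of 86 BMCP and 36 of 40 GMP had it after thinning. Gpx1, a glutathione peroxidase, was at 797 and 2497 CPM, Txn1, thioredoxin, at 117 and 368 CPM, and Prdx5, a peroxiredoxin, at 93.2 and 239.5 CPM. Sod1 and Cat, superoxide dismutase and catalase, lay within 2-fold, at 117 and 154 CPM and at 307 and 270 CPM.

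Of 18 ficolin, annexin, Rac and S100 genes, 7 were at least 2-fold higher in BMCP and 1 was lower, against 25.78% and 21.03% of all genes, with a median log2 ratio of 0.66. With spike-in scaling 5 were higher and 3 lower, against 15.2% and 43.2% of all genes, and the median turned to -0.20. Anxa6, an annexin, was at 726 and 122 CPM, S100a10, the partner of annexin A2, at 1369 and 239 CPM, and Rhoh, a GTPase of blood cells, at 467 and 57.9 CPM. Anxa1, an annexin of mature neutrophils, was at 239.7 and 276 CPM with a log2 ratio of -0.20.

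The 6 GMP that did not pass the cell filters held, summed, 441 CPM of Hp, 1147 CPM of Anxa3, 418 CPM of Ncf1 and no read of Cybb or S100a8. In the 5 BMCP left out, Ncf4 had 661 reads, all in 1 cell.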
